A study of Zea mays with 12 samples.

Results

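Actin (Zm00001d013873), alpha tubulin 3 (Zm00001d013367) and PAB2 (Zm00001d005276) are 3 maize genes that the study of endoplasmic reticulum stress used as standards or markers. They were chosen for that use, by their identifiers, and are 3 of the 39498 genes in the deposited count table. Roots of B73 seedlings were treated with 5 µg/ml tunicamycin (TM) in DMSO for 0, 6 or 12 hr, and each of the 6 lysates (2 biological replicates per time point) gave 1 RNAseq library and 1 ribo-seq library of ribosome-protected fragments (RPFs). TM blocks N-glycosylation, so that unfolded glycoproteins accumulate in the endoplasmic reticulum. Mock-treated roots are described in the methods but were not analysed here, so the effect of TM cannot be told apart from that of time in the treatment medium. The labels and the methods give different ages for the seedlings.

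Actin monomers assemble into the microfilaments along which vesicles move in plant cells, and actin was the gene to which the study scaled its libraries. Alpha tubulin pairs with beta tubulin to form microtubules, which guide the deposition of cellulose in root cells, and alpha tubulin 3 served as the qRT-PCR standard for RNA from polysome fractions. PAB2 is a poly(A)-binding protein: such proteins coat the tail of an mRNA, contact the cap-binding complex and promote translation. They also collect in stress granules. The study fused PAB2 to a yellow fluorescent protein as a stress granule marker, which it expressed in leaf protoplasts. It also spiked recombinant PAB2-YFP into stress granule samples to compare RNA amounts. The PAB2 mRNA of roots was not a standard of the study and is set beside the other genes here for comparison only. A standard is useful to the extent that its level, its ribosome occupancy and the ratio of them hold still in the conditions compared, and this was the question asked of the 3 genes.

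The oligonucleotides tie 2 of these genes to the experiments in which they served, and are copied from the study's primer list. Capitals, as in that list, mark the PAB2 part, which begins with an ATG in the forward primer, and lower case marks the added AscI site (ggcgcgcc) or XbaI site (tctaga) with its flanking bases. The alpha tubulin 3 primer is the reverse primer used for qRT-PCR, which the list prints in capitals. It is given here in lower case throughout, which for this primer does not mark added bases.
PAB2 forward: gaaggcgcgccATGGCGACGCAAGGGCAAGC
PAB2 reverse: agtctagaGCTGGAGACGACGCCATCATT
alpha tubulin 3 reverse: cctggagaccagtgcaattat

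Library totals ran from 2019128 to 9861654 counts in RNAseq and from 1667094 to 12328304 in ribo-seq. Values are given as CPM (the gene's count divided by the total of its library and multiplied by 1000000), and levels are not compared between genes, since gene lengths were not used here. In all 6 pairs of replicates the counts differed by more than sampling noise (chi-square per degree of freedom 4.52 to 10.8), so each library was kept as a sample. Actin, tubulin and poly(A)-binding proteins belong to families of similar genes. The authors kept 1 best alignment of a read that matched several places, so the counts of the 3 genes may include reads of their relatives.

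Actin had the fewest reads of the 3 genes. Its RNA was at 29.2 and 42.9 CPM in replicates 1 and 2 of the untreated roots. After 6 hr of TM it was at 36.8 and 32.4 CPM, and after 12 hr at 29.2 and 22.0 CPM. The highest library was an untreated one and the lowest a 12 hr one, but the other untreated library was as low as the higher of the 12 hr pair. These values rested on 59 to 363 reads per library, so that counting alone gave an error of 5.25 to 13.0%. The untreated replicates differed 1.47-fold and the 12 hr replicates 1.33-fold.

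Actin RPFs were at 29.3 and 52.3 CPM in untreated roots, 48.0 and 44.8 CPM at 6 hr, and 40.2 and 36.1 CPM at 12 hr, from 80 to 445 reads. Here the untreated replicates enclosed all 4 treated libraries, and they differed 1.78-fold, against 1.07-fold at 6 hr and 1.11-fold at 12 hr.

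Alpha tubulin 3 RNA was at 415 and 503 CPM in untreated roots. It was at 503 and 492 CPM at 6 hr, and at 484 and 364 CPM at 12 hr, with 837 to 4962 reads in a library. Each treated pair overlapped the untreated pair, but both 12 hr libraries lay under both 6 hr libraries. Replicate 2 at 12 hr was a single low library, which lay under the 5 others. Its RPFs were at 417 and 433 CPM in untreated roots, 645 and 450 CPM at 6 hr, and 527 and 303 CPM at 12 hr. The untreated pair was tight (1.04-fold) and lay under both 6 hr libraries, whereas the 12 hr pair differed 1.74-fold and spanned the untreated values. The same 12 hr replicate 2 lysate gave the lowest value in both library types.

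PAB2 RNA was at 281 and 201 CPM in untreated roots. It was at 244 and 211 CPM at 6 hr, and at 241 and 255 CPM at 12 hr, from 568 to 2408 reads. Both the highest and the lowest library were untreated, so that all treated libraries fell between them. PAB2 RPFs were at 219 and 176 CPM in untreated roots, 218 and 196 CPM at 6 hr, and 199.9 and 186 CPM at 12 hr. Again the untreated pair enclosed all 4 treated libraries, with a difference of 1.25-fold between them. The means of the 3 time points, 193 to 207 CPM, lay closer together than the 2 untreated lysates.

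**Figure D1:**
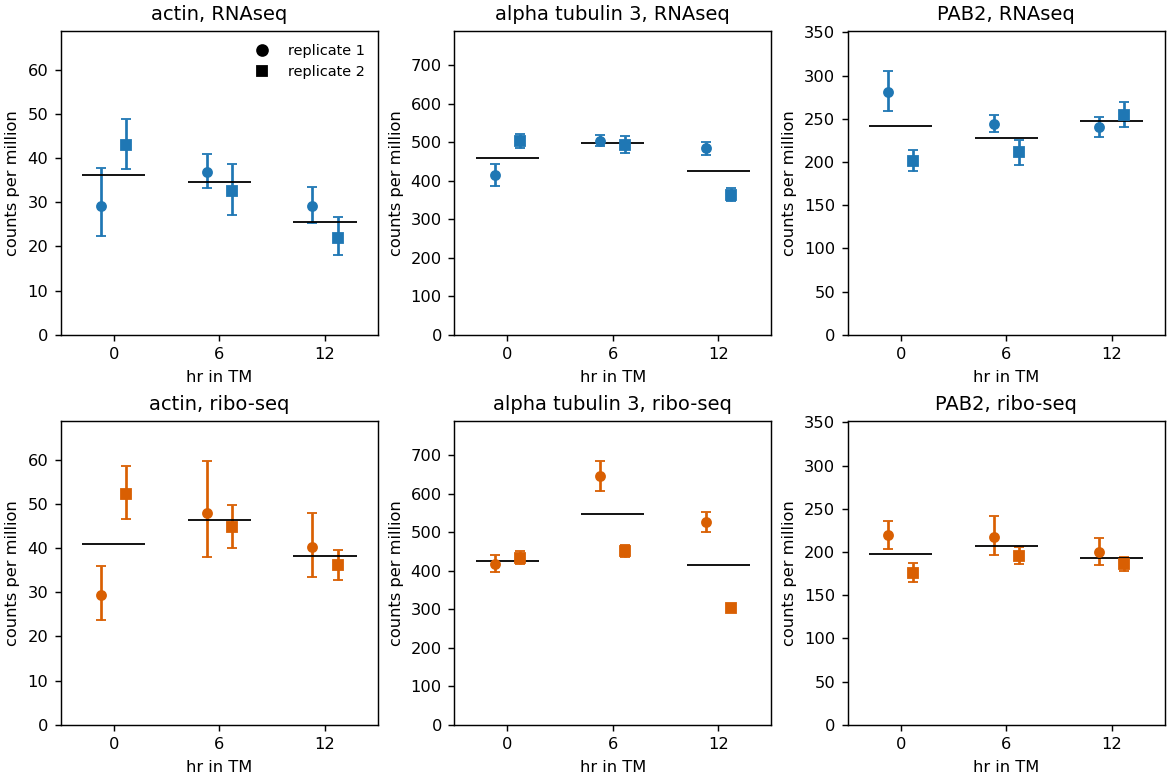
CPM of each gene (y axis) in the RNAseq libraries (upper panels) and ribo-seq libraries (lower panels) by hr in TM (x axis), where points are single libraries with 95% counting intervals and horizontal lines are the means of the 2 replicates. The 2 untreated actin ribo-seq libraries, at 29.3 and 52.3 CPM, lie on either side of all 4 treated ones, and the untreated PAB2 libraries do so in both library types.

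None of the 3 genes passed the test at either time, in RNA or in RPFs. In edgeR's quasi-likelihood test with total-count scaling and Benjamini-Hochberg adjustment over all genes tested, the share of 23721 genes that passed for RNA was 0.164% at 6 hr and 0.354% at 12 hr. The share of 20414 genes that passed for RPFs was 0.0686% at 6 hr and 0.176% at 12 hr. At such shares 0 of 3 does not set these genes apart from other genes, and the interval of each change is given for that reason.

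The widest RNA change was that of actin at 12 hr against 0 hr. Its mean level was 25.6 ± 5.13 CPM (SD, n = 2) against 36.1 ± 9.71 CPM, a log2 change of -0.51 with a standard error of 0.27 (edgeR adjusted p = 0.571, unadjusted p = 0.0819). The 95% interval ran from -1.1 to 0.08, or from 0.465-fold to 1.05-fold, so neither a loss of that size nor no change was distinguishable with 2 replicates. Of all genes tested, 69.1% had a smaller absolute change at this time point. At 6 hr the log2 change of actin RNA was -0.08, with an interval from -0.66 to 0.51.

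The other 2 genes had narrower intervals. PAB2 RNA gave a log2 change of 0.04 at 12 hr, with an interval from -0.40 to 0.48, and 7.76% of genes had a smaller absolute change. Alpha tubulin 3 RNA gave -0.11, with an interval from -0.54 to 0.31. At 6 hr the log2 changes were -0.08 for PAB2 (interval -0.52 to 0.36) and 0.12 for alpha tubulin 3 (interval -0.31 to 0.54).

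Among footprints the widest change was that of alpha tubulin 3 at 6 hr. Its RPF mean was 548 ± 138 CPM against 425 ± 11.0 CPM in untreated roots (SD, n = 2 each), a log2 change of 0.36 with an interval from -0.24 to 0.96 (edgeR adjusted p = 1.00). At 12 hr it was -0.04, with an interval from -0.64 to 0.56. Actin RPFs gave 0.17 at 6 hr (interval -0.48 to 0.81) and -0.11 at 12 hr (interval -0.76 to 0.53). PAB2 RPFs gave 0.06 and -0.03, with intervals from -0.40 to 0.53 and from -0.50 to 0.43.

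The ratio of RPF CPM to RNA CPM within a lysate is a measure of ribosome occupancy per transcript, or translation efficiency. For actin the ratio was 1.00 and 1.22 in untreated lysates, 1.30 and 1.38 at 6 hr, and 1.38 and 1.64 at 12 hr. Every treated lysate lay above both untreated ones, with the 6 hr and 12 hr values meeting at 1.38. The counting intervals were wide: 0.719 to 1.41 for the lowest untreated lysate, and 1.33 to 2.05 for the highest 12 hr lysate. Counting intervals leave out the variation between lysates. They may also be too narrow for counting error itself, since PCR copies are not independent molecules.

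For alpha tubulin 3 the ratio was 1.01 and 0.861 in untreated lysates, 1.28 and 0.914 at 6 hr, and 1.09 and 0.834 at 12 hr. All 3 pairs overlapped, and the difference within the 6 hr pair was wider than any difference between the means of the time points. PAB2 had ratios of 0.780 and 0.872 in untreated lysates, 0.892 and 0.927 at 6 hr, and 0.830 and 0.730 at 12 hr. Its 6 hr pair lay above the untreated and 12 hr pairs, by a small margin, and the latter pairs overlapped. Over the 11828 genes with a mean of at least 10 CPM in each library type, the median ratio in a lysate was between 1.01 and 1.09.

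**Figure D2:**
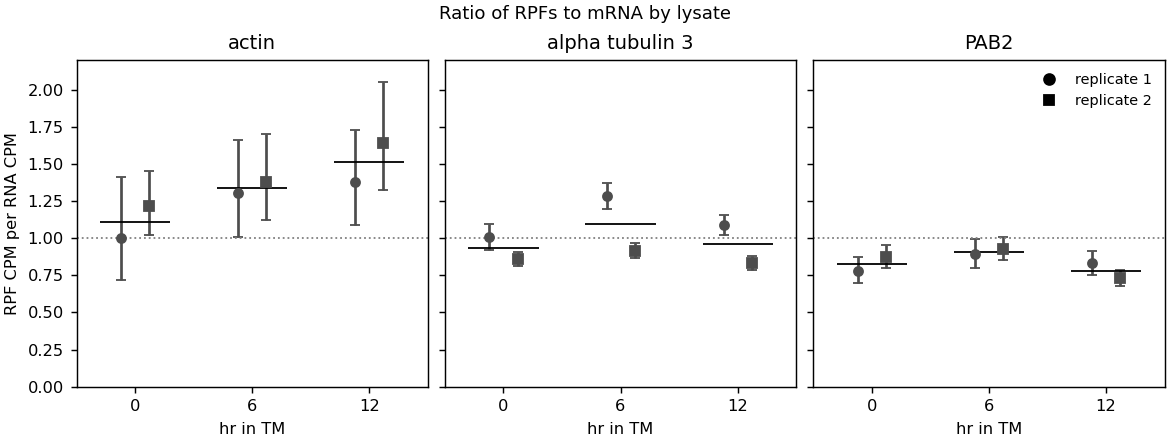
Ratio of RPF CPM to RNA CPM (y axis) in each of the 6 lysates by hr in TM (x axis) for actin, alpha tubulin 3 and PAB2, with 95% counting intervals, the mean of each time point (horizontal line) and a dotted line at 1. All 4 treated lysates lie above both untreated ones for actin, which ranges from 1.00 to 1.64, while PAB2 stays between 0.730 and 0.927.

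The change in translation efficiency was tested as the interaction of library type and time, with a term for the lysate. Over 20055 genes, replicate differences in RNA and in RPFs correlated at 0.306 at 0 hr, 0.044 at 6 hr and 0.373 at 12 hr. The pairing of libraries by lysate thus left little trace at 6 hr. No gene of 20055 tested passed at 6 hr or at 12 hr in edgeR (percentages called 0 and 0), whereas 691 and 1088 genes had an unadjusted p under 0.05, and DESeq2 also called 0 genes at each time. For actin the log2 change in translation efficiency was 0.26 at 6 hr (interval -0.40 to 0.92) and 0.42 at 12 hr (SE 0.32, interval -0.24 to 1.1, edgeR adjusted p = 0.951). So the order of the actin ratios did not exceed the error of 2 lysates per time. Alpha tubulin 3 gave 0.22 at 6 hr and 0.04 at 12 hr, with intervals from -0.24 to 0.67 and from -0.42 to 0.49. PAB2 gave 0.14 and -0.09, with intervals from -0.29 to 0.57 and from -0.52 to 0.35.

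The spread of each gene over the 6 libraries of a type, whatever their time point, was compared with that of the genes nearest to it in mean CPM (up to 500, fewer where too few genes lay above it). PAB2 was the least variable of the 3 genes in footprints and in the ratio. The coefficient of variation (CV) of PAB2 RPFs was 8.68%, against a median of 14.2% for genes of similar count, and 83.4% of those genes varied more. The PAB2 ratio had a CV of 8.77%, and 82% of similar genes varied more. In RNA it stood close to the middle, with a CV of 12.2% and 59.2% of similar genes more variable.

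Alpha tubulin 3 stood near the middle in RNA and was among the more variable genes in footprints. Its RNA had a CV of 12.5%, and 57.6% of 446 similar genes varied more. Its similar genes spanned a wide range of mean CPM: 267 to 17603 in RNA, 297 to 3296 in RPFs and 274 to 4994 for the ratio. Its own means were 460 CPM in RNA and 463 CPM in RPFs. Its RPFs had a CV of 24.8% and a range of 2.13-fold, against a median CV of 15.0%, and 18.2% of 500 similar genes varied more. Counting error accounted for a CV of 2.41% there, and its ratio had a CV of 16.9%, with 23.7% of 459 similar genes more variable. This RPF share moved with single lysates: it was 11.7% without untreated replicate 1, 28.4% without replicate 1 at 6 hr, and 30.5% without replicate 2 at 12 hr. The share for the ratio was 48.2% without replicate 1 at 6 hr.

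Actin had a CV of 22.4% in RNA and 19.9% in RPFs, ranges of 1.96-fold and 1.78-fold. The medians for genes of similar count were 19.1% and 17.5%, and 32% and 38.6% of those genes varied more. Counting error alone would give CVs of 8.49% and 8.03%. The RNA share was 18.2% without untreated replicate 1 and 53.4% without replicate 2 at 12 hr, and the RPF share was 65.8% without untreated replicate 1. For its ratio the CV was 15.9%, of which counting error alone would give 12.0%, and 78.6% of similar genes varied more. The actin ratio thus had a smaller CV than actin RNA or actin footprints.

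**Figure D3:**
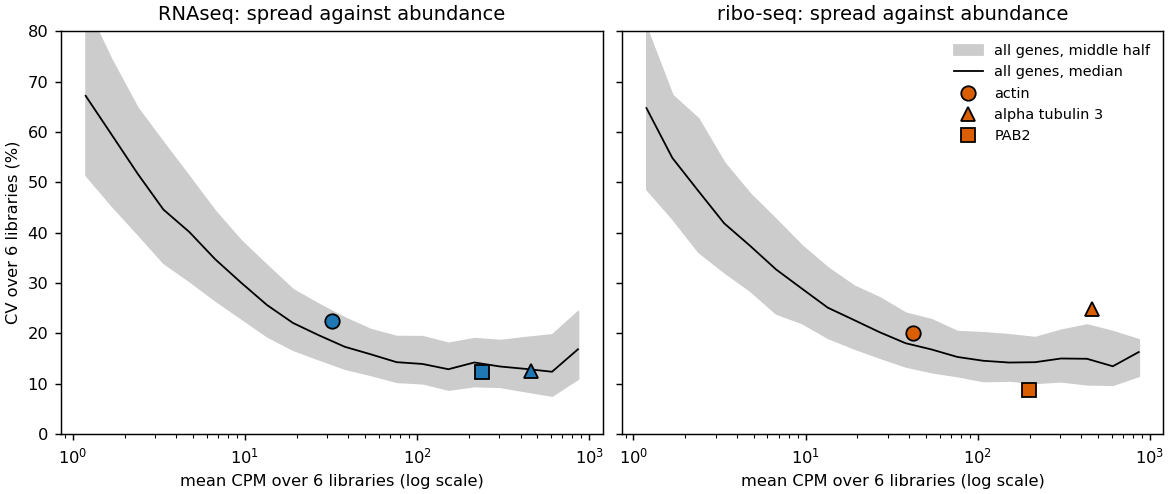
Coefficient of variation over 6 libraries (y axis, %) against mean CPM (x axis, log scale) in RNAseq and ribo-seq for the 3 genes (symbols), with the median (line) and the interquartile range (grey) of all genes binned by mean CPM. PAB2 lies low in RPFs (8.68%, median of similar genes 14.2%), and alpha tubulin 3 lies high in RPFs (24.8%, median 15.0%).

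Ratios of counts within a library need no scaling and show the 3 genes against one another. PAB2 and actin diverged most. In RNA the number of PAB2 reads per actin read was 9.63 and 4.69 in untreated lysates, 6.63 and 6.50 at 6 hr, and 8.24 and 11.6 at 12 hr. In RPFs it was 7.48 and 3.36 in untreated lysates, 4.54 and 4.37 at 6 hr, and 4.97 and 5.15 at 12 hr. Untreated replicate 2 gave the lowest value in each library type, and the untreated replicates differed 2.05-fold in RNA and 2.23-fold in RPFs. Their 95% counting intervals did not overlap: 7.35 to 12.8 against 4.06 to 5.44 in RNA, and 6.04 to 9.35 against 2.95 to 3.83 in RPFs. The RNAseq and ribo-seq libraries of each of these lysates were made from the same material, and they gave the same order.

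Alpha tubulin 3 and actin kept the steadiest ratio in RNA, where tubulin reads per actin read were 14.2 and 11.7 in untreated lysates, 13.7 and 15.2 at 6 hr, and 16.6 and 16.6 at 12 hr, a 1.42-fold range in which the 12 hr pair lay above the 4 other libraries. In RPFs the ratio was 14.2 and 8.28 in untreated lysates, 13.5 and 10.1 at 6 hr, and 13.1 and 8.40 at 12 hr, a 1.72-fold range in which the 3 time points overlapped. Alpha tubulin 3 against PAB2 ranged from 1.43 to 2.49 in RNA and from 1.63 to 2.96 in RPFs. Both the untreated and the 12 hr pairs overlapped with each other in each library type.

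The edgeR fits scaled to actin give the change of the other genes relative to it. At 12 hr PAB2 RNA relative to actin changed by 0.48 on the log2 scale (SE 0.35, interval -0.25 to 1.2, edgeR adjusted p = 0.469). Alpha tubulin 3 RNA relative to actin changed by 0.36 (SE 0.28, edgeR adjusted p = 0.490). Translation efficiency relative to actin was -0.53 for PAB2 (interval -1.1 to 0.04, edgeR adjusted p = 0.354) and -0.41 for alpha tubulin 3 (edgeR adjusted p = 0.505). None of these relative changes passed the test.

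A standard enters every other value through the factor it gives each library. Relative to total counts, the factors given by actin ranged 1.96-fold over the RNAseq libraries and 1.78-fold over the ribo-seq libraries. Those given by alpha tubulin 3 ranged 1.38-fold and 2.13-fold, and those given by PAB2 1.40-fold and 1.25-fold. Trimmed-mean (TMM) factors, which draw on genes with a count in a library type and leave out the extremes, ranged 1.04-fold and 1.03-fold. The geometric mean of the 3 genes, a scaling added after seeing the data, gave ranges of 1.31-fold and 1.49-fold, so joining the 3 genes left a wider range than TMM.

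**Figure D4:**
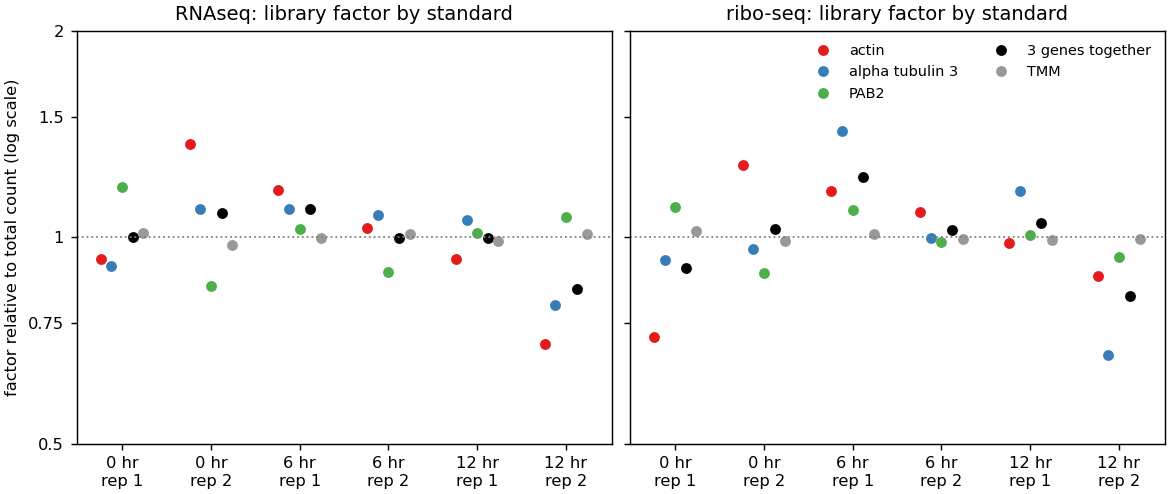
Factor given to each library by each standard relative to its total count, for RNAseq and ribo-seq; each point is 1 library and 1 is the total count. TMM factors lie within a 1.04-fold range, whereas those of actin range 1.96-fold in RNA and those of alpha tubulin 3 range 2.13-fold in RPFs.

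The choice of standard moved the median of all genes at 12 hr. A shift of this kind follows from the standard's counts in each library, but need not equal its fitted change under total counts. For actin RNA that change was -0.51 (interval -1.1 to 0.08), and -0.74 to -0.18 when 1 replicate was left out. Under total counts the median log2 change of RNA was 0.01, and it was 0.51 with actin, 0.15 with alpha tubulin 3 and -0.08 with PAB2. The calls followed in direction: with total counts 45 genes were higher and 39 lower, with actin 66 higher and 3 lower, with alpha tubulin 3 47 higher and 18 lower, and with PAB2 18 higher and 19 lower. For RPFs at 12 hr the medians were -0.01, -0.01, 0.14 and 0.01 in the same order. The standards' own RPF changes under total counts were -0.11 for actin, -0.04 for alpha tubulin 3 and -0.03 for PAB2. The RPF medians thus did not shift in proportion to them. The RPF calls were 30 higher and 6 lower with total counts, 28 and 29 with actin, 26 and 14 with alpha tubulin 3, and 39 and 20 with PAB2.

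At 6 hr the effect was largest in footprints. Total counts gave 14 genes higher and 0 lower, whereas actin gave 13 higher and 42 lower, alpha tubulin 3 gave 8 and 22, and PAB2 gave 22 and 9. These calls are few among the 20414 genes tested. Genes with an unadjusted edgeR p under 0.05 did not increase. They numbered 792 with total counts, 741 with actin, 566 with alpha tubulin 3 and 756 with PAB2. The median log2 RPF change was -0.02 with total counts, -0.29 with actin, -0.32 with alpha tubulin 3 and -0.09 with PAB2. RNA calls at 6 hr were 31 higher and 8 lower with total counts, 21 and 1 with actin, 26 and 3 with alpha tubulin 3, and 20 and 8 with PAB2.

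In translation efficiency the share of genes with a negative change moved with the standard at 12 hr. With total counts 51.1% of the genes had a negative log2 change and the median was -0.01. Scaling each library type to its own total holds this median near 0 largely by construction. A change in translation efficiency shared by most genes would therefore not show under it. With actin 81.5% were negative and the median was -0.45. The actin-scaled median in turn follows largely from actin's own translation efficiency change of 0.42 (interval -0.24 to 1.1) under total counts. That change did not pass the test. The counts alone cannot tell a change of actin from a change shared by most genes. With alpha tubulin 3 54.3% were negative and the median was -0.05, and with PAB2 42.6% were negative and the median was 0.08. No gene passed the edgeR test of translation efficiency with any of these standards. At 6 hr the medians were -0.05 with total counts, -0.32 with actin, -0.26 with alpha tubulin 3 and -0.19 with PAB2.

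**Figure D5:**
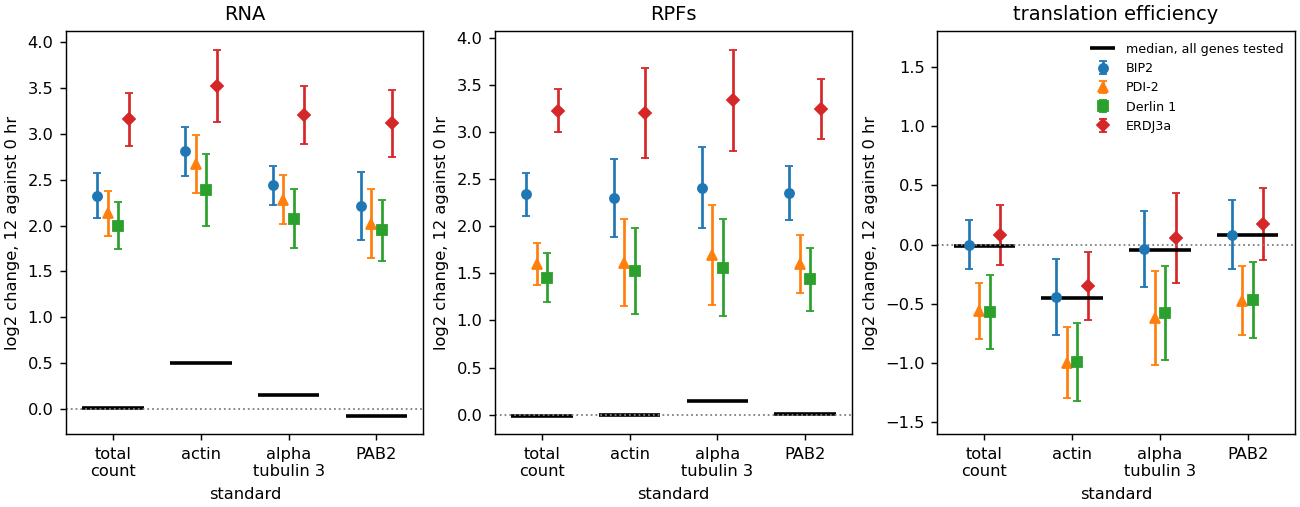
Log2 change from 0 to 12 hr (y axis) under each standard (x axis) for RNA, RPFs and translation efficiency, where black lines are medians over all genes tested and symbols with standard errors are BIP2, PDI-2, Derlin 1 and ERDJ3a. At 12 hr the median translation efficiency is -0.01 with total counts and -0.45 with actin, and the RNA median moves from 0.01 to 0.51.

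Genes of the unfolded protein response that the study followed show how far a standard moves a large change. At 12 hr the RNA of BIP2 (Zm00001d014993), a chaperone of the endoplasmic reticulum lumen, gave log2 changes of 2.33 with total counts, 2.81 with actin, 2.44 with alpha tubulin 3 and 2.22 with PAB2. PDI-2 (Zm00001d005866), a protein disulfide isomerase, Derlin 1 (Zm00001d010368), of the pathway that degrades misfolded proteins, and ERDJ3a (Zm00001d047726), a co-chaperone, gave 2.13, 2.00 and 3.16 with total counts and 2.67, 2.39 and 3.52 with actin. In RNA at 12 hr all 4 genes rose in the edgeR test with each of these standards. At 6 hr they rose with each standard except for Derlin 1 scaled to actin (edgeR adjusted p = 0.104). In translation efficiency none of the 4 passed, and the values moved by about as much: Derlin 1 was -0.57 with total counts and -0.99 with actin, and BIP2 was 0.00 and -0.44.

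Over the 12 libraries, centred within each library type, the gene whose log2 level was most like that of actin was Zm00001d041550 (Pearson r 0.964). For alpha tubulin 3 it was Zm00001d051658 (r 0.959) and for PAB2 Zm00001d025773 (r 0.928). Among the 3 genes themselves r was 0.569 for actin and alpha tubulin 3, -0.558 for actin and PAB2, and 0.0188 for alpha tubulin 3 and PAB2. These are descriptions over 12 points that share 6 lysates, and the leading genes are the extremes of 11828.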

How the data were processed

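The authors trimmed reads with cutadapt 1.16, aligned them to B73 RefGen_v4 with Bowtie 1.2 and deposited 1 table of whole-number read counts per gene for 6 RNAseq and 6 ribo-seq libraries, named by the labels. Actin, alpha tubulin 3 and PAB2 and the genes set beside them were chosen with earlier results of these data known. CPM were computed from each column's total. Changes were tested with edgeR 4.0.16 in R 4.3.3 (filterByExpr, quasi-likelihood test, Benjamini-Hochberg adjustment over all genes, threshold 0.05), separately for RNA and RPFs. Translation efficiency was the interaction of library type and time, with the lysate, which the methods give as the source of both libraries, as a term. The study scaled to actin, which cannot be tested against itself, so total counts were the main scaling. Alternatives were TMM, each gene as standard, no filter, DESeq2 1.42.0, a replicate block and leaving out each library. The tests were tried on simulated data. Named genes were the 3 genes, the 4 stress response genes with a full identifier in the study, and the gene with the highest Pearson r to each, among genes whose mean reached 10 CPM. Ratios between counts have exact binomial 95% intervals, CPM exact Poisson ones. The spread of the ratio used 0.5 added to each count. No genome of this build was used, so no positions are given, and tissue markers were not checked because gene names were not paired with identifiers here.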

Additional observations from a re-analysis of the deposited data

How the results depend on the processing

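No change of the 3 genes passed the edgeR threshold in any of the 198 alternative values, with a smallest adjusted p of 0.208; 163 kept their sign and 35 turned it. Scaled to actin, alpha tubulin 3 gave a log2 change of 0.36 in RNA at 12 hr and -0.058 and -0.41 in translation efficiency at 6 and 12 hr, and PAB2 gave -0.28 in RPFs and -0.14 in translation efficiency at 6 hr. Scaled to alpha tubulin 3, actin RPFs gave -0.14 at 6 hr and 0.031 at 12 hr, PAB2 RPFs -0.27 and 0.092, and PAB2 translation efficiency -0.077 at 6 hr. With the geometric mean of the 3 genes, added after seeing the data, alpha tubulin 3 gave 0.061 in RNA and -0.10 in translation efficiency at 12 hr, actin RPFs -0.014 at 6 hr, PAB2 RPFs -0.17 and 0.011 at 6 and 12 hr, and PAB2 translation efficiency -0.071 at 6 hr. A standard that itself differs between the groups shifts every other gene by construction. Whether a standard differs was judged here relative to library totals only. A change of the standard therefore cannot be told apart from a change in total mRNA or RPFs per root.

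Leaving out 1 replicate, RNA changes at 6 hr ranged from -0.30 to 0.25 for actin, -0.014 to 0.26 for alpha tubulin 3 and -0.30 to 0.18 for PAB2, and at 12 hr from -0.74 to -0.18, -0.34 to 0.076 and -0.18 to 0.30. RPF changes at 6 hr ranged from -0.18 to 0.66, 0.08 to 0.60 and -0.089 to 0.23, and at 12 hr from -0.46 to 0.37, -0.49 to 0.31 and -0.19 to 0.13. Translation efficiency changes ranged from 0.14 to 0.42, -0.023 to 0.47 and 0.06 to 0.22 at 6 hr, and from 0.30 to 0.58, -0.16 to 0.23 and -0.18 to 0.0083 at 12 hr. A group left with 1 sample is assumed to vary like the others. The share of similar genes that varied more, left out by lysate after seeing the data, ranged for actin from 18.2 to 53.4% in RNA, 26.2 to 65.8% in RPFs and 64.2 to 90% in the ratio. For alpha tubulin 3 it ranged from 48.9 to 81.7%, 11.7 to 30.5% and 17.8 to 48.2%, and for PAB2 from 47.4 to 62.8%, 78 to 87.6% and 72.8 to 89.4%.

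Counts of genes called depended on the fit. RNA at 6 hr gave 39 genes, against 22 scaled to actin, 429 without the filter, 139 with DESeq2 and 2 to 165 without 1 replicate. RNA at 12 hr gave 84, against 37 scaled to PAB2, 604 without the filter, 247 with DESeq2 and 16 to 187 without 1 replicate. RPFs at 6 hr gave 14, against 55, 30 and 31 scaled to actin, alpha tubulin 3 and PAB2, 191 without the filter, 63 with DESeq2 and 5 to 18 without 1 replicate. RPFs at 12 hr gave 36, against 57 and 59 scaled to actin and PAB2, 58 with the geometric mean, 262 without the filter, 99 with DESeq2 and 17 to 29 without 1 replicate. Translation efficiency gave 0 and 0, against 1 and 28 without the filter and 0 to 0 without 1 replicate. With the replicate block the RNA counts were 11 and 16 and the RPF counts 30 and 67. Between time points, the correlation of replicate differences ran from -0.229 to 0.070 in RNA and -0.003 to 0.271 in RPFs. RNA and RPFs of the same lysates, which are paired, correlated as weakly as 0.044 and at most at 0.373. These ranges overlap, so the correlations cannot decide whether replicate numbers pair the time points. The causes were not tested. With 59 reads in untreated RNAseq replicate 1, its lowest count, actin limits any value scaled to it.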
